A study of Mus musculus with 4 samples.

Results

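The Hox genes are the 39 genes of the mouse HoxA, HoxB, HoxC and HoxD clusters, chosen by their symbols alone (Hoxa, Hoxb, Hoxc or Hoxd followed by a paralog number) from the 26322 genes in the MC38 expression table. MC38 is a mouse colon carcinoma line. Cells were electroporated with a Cas9 ribonucleoprotein carrying a guide against Cbfb (sgCbfb, labelled CbfbKO) or a non-targeting guide (sgNT, labelled WT), and were, per the labels, collected a week or more later. Both groups therefore had Cas9 and electroporation, and whether the edited cells were cloned is not given in the sources used here. The comparison asks which transcripts differ once CBFβ, the partner subunit of the RUNX transcription factors, is depleted. There were 2 libraries per group, each of a 3′ mRNA preparation that reads the end of a transcript, so that levels are given as CPM (reads scaled to the size of the library) without division by gene length. The labels do not say whether same-group libraries came from separate cultures, so p-values measure only the spread between these libraries.

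Hox genes encode homeodomain transcription factors that give cells along the body axis and the limbs their positional identity. In each cluster the genes lie in the order in which they are used, from paralog group 1, active towards the head, to group 13, active towards the tail and the digits. Their proteins bind DNA together with TALE homeodomain partners of the Pbx and Meis families, Polycomb and Trithorax complexes hold the clusters off or on, and retinoic acid is known to induce the early members. Cells in culture often keep a Hox pattern that reflects where in the body they came from. Groups 9 to 13 are used in the posterior trunk, and Hoxa13 and Hoxd13 are known for their role in the hindgut.

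By the GENCODE annotation of GRCm38, HoxA from Hoxa2 on lies at chr6:52162417-52260880, HoxB at chr11:96194316-96368256, HoxC at chr15:102921103-103036852 and HoxD at chr2:74668310-74765142. All 39 genes were found there. The reference gene starts from RefSeq held 22 of the 39, in 24 windows of 250 bases before to 50 after a start. Summed over a cluster, HoxD had the highest sgCbfb to sgNT ratio of reads, and sequences before its start sites are shown for that reason, for the member with most reads (Hoxd13), a neighbour with none (Hoxd12), the member with the smallest p-value (Hoxd4) and the only tested Hox genes of those in the table whose window held a RUNX hexamer (Hoxd10 and Hoxd3). All are on the + strand of GRCm38.p6, 5′ to 3′, in lower case, with capitals marking TGTGGT or TGCGGT, the hexamers searched for, with ACCACA and ACCGCA as their other strand. The Hoxd3 sequence stops before the first base of an annotated transcript, short of the RefSeq start, and is shorter.
Hoxd13, chr2:74667975-74668224: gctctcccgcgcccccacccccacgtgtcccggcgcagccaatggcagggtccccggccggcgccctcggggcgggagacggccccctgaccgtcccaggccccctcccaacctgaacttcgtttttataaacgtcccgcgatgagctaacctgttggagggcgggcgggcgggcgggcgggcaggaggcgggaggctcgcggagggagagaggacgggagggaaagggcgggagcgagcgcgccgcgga
Hoxd12, chr2:74674763-74675012: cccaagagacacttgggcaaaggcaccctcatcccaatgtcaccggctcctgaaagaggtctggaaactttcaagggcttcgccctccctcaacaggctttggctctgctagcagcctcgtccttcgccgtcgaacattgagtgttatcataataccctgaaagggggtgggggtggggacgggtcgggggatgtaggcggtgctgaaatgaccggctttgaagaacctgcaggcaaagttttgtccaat
Hoxd10, chr2:74691641-74691890: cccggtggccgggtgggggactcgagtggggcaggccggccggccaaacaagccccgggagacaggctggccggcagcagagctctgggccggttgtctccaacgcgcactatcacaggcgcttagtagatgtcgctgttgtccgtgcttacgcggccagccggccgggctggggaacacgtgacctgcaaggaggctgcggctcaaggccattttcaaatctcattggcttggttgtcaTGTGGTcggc
Hoxd3, chr2:74711743-74711926: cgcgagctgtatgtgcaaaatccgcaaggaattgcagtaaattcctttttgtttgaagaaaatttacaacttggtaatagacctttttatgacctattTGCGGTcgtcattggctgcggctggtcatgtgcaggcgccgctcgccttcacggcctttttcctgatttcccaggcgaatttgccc
Hoxd4, chr2:74721728-74721977: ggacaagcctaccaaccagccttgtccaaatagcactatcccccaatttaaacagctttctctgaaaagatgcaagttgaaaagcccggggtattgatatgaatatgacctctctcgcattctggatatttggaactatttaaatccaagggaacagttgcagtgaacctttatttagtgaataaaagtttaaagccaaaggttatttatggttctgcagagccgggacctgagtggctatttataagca

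These sequences differ widely in CpG content, with 31 CpG dinucleotides in the 250 bases before Hoxd13, 20 before Hoxd10, 10 before Hoxd12 and 3 before Hoxd4. A RUNX hexamer lay in 2 of the 15 windows of tested Hox genes (13.3%), in 1 of the 9 windows of Hox genes below the expression filter (11.1%), and in 22.4% of the 32851 windows of all genes of the same length. In Hoxd10 the TGTGGT began 10 bases before the RefSeq start, and in Hoxd3 the TGCGGT began 152 bases before the RefSeq start. The printed Hoxd3 sequence ends short of that start, so this distance is not counted from its last base. Windows of tested and untested Hox genes had like CpG counts, with medians of 14 and 15 against 7 over all windows. A match is a description of letters, and no binding was measured here.

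The libraries held 3396192 and 3335116 counted reads in sgNT and 3907936 and 3189035 in sgCbfb, so that 1 read was worth 0.256 to 0.314 CPM, and a gene with no reads could lie anywhere up to 0.768 to 0.941 CPM in a library (3 reads; counting error only). Cbfb reads went from 295 and 285 to 125 and 125, as the labels say, and Runx1 and Runx2 were called higher (0.65 and 0.79 on the log2 scale), while Runx3 had no reads. The colorectal label was checked against cell type markers. The 8 epithelial markers had 5 to 6 reads together in each library, and Krt18, Vil1 and Cldn7, which define gut and other simple epithelia, had none, whereas the 8 mesenchymal markers summed to 2569.9 to 2704 CPM in sgNT and 2269 to 2364 in sgCbfb, nearly all of it Vim, with Thy1 at 0. The mesenchymal sum was lower in both sgCbfb libraries, which follows Vim. Of its 6 tested members 4 had a positive log2 difference (median 0.26), namely Pdgfrb (0.82), Pdgfra (0.53), Col1a1 (0.41) and Fn1 (0.10), none of them past the threshold, while Vim was at -0.18 and Col3a1 was called lower (-0.90). The part of these markers in the Hox results was not tested. Leukocyte markers had 0 to 6 reads per library and endothelial markers 1 to 2. Cdx1 and Cdx2, the homeobox genes that mark intestinal epithelium and act upstream of posterior Hox genes, had no reads and a single read over all libraries. The Hox pattern below is thus that of cells with few epithelial marker transcripts, although they are labelled as colorectal cancer cells.

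A Hox gene was taken as expressed in sgNT cells when its deposited log2 value was at least 0 in both sgNT libraries. This held for 22 of 39, each with at least 5 reads in both. By cluster these were 6 of 11 HoxA genes, 3 of 10 HoxB genes, 8 of 9 HoxC genes and 5 of 9 HoxD genes. Asking for 10 reads in both sgNT libraries left 16, none of them in HoxB, and asking for 1 read in both gave 27. All Hox genes together had 1110 and 1143 reads in sgNT, 327 and 343 CPM. HoxA gave 38.3% of the Hox reads, HoxC 39.3%, HoxD 19.8% and HoxB 2.57%.

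**Figure D1:**
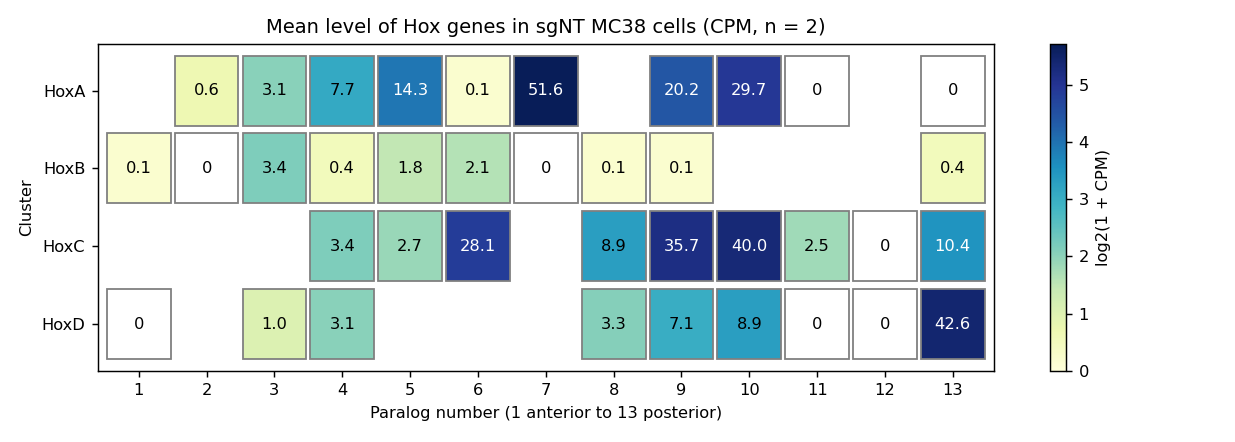
Mean CPM of Hox genes in the 2 sgNT libraries, by cluster (rows) and paralog number (columns), with colour on a log2 scale after adding 1. Blank places hold no gene or one that is not reported here. The HoxB row stays at or under 3.43 CPM throughout, and Hoxa7, Hoxd13 and Hoxc10 are the highest.

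By paralog number the summed level was low in the anterior groups and high in most posterior ones. Group 10 had the highest sum, 78.6 ± 5.1 CPM (SD, n = 2), followed by group 9 with 63.2 ± 6.5, group 13 with 53.5 ± 2.3 and group 7 with 51.6 ± 8.4. Groups 2 and 3 summed to 0.592 and 7.60 CPM. Group 12 had no reads and group 11 had only the 2.53 of Hoxc11, so the posterior end was broken between groups 10 and 13.

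Hoxa7, which patterns the thoracic skeleton with its neighbours, was the highest Hox gene, with 155 and 192 reads in the sgNT libraries and 51.6 ± 8.4 CPM (SD, n = 2), above 72.1% of the tested genes. Next came Hoxd13, the digit and hindgut gene, with 148 and 139 reads (42.6 ± 1.3 CPM, SD, n = 2), and Hoxc10, a gene of lumbar motor neurons and the hindlimb, with 140 and 129 (40.0 ± 1.8). Hoxa7, Hoxd13 and Hoxc10 did not overlap each other in the sgNT libraries. Hoxc9 followed with 101 and 139 reads and overlapped Hoxc10 above it and Hoxa10 below it. Hoxa10 (107 and 93 reads) and Hoxc6 (95 and 94 reads) overlapped too, at 29.7 and 28.1 CPM. Below them, Hoxa9 (71 and 65 reads), Hoxa5 (45 and 51) and Hoxc13 (38 and 32) stood in separate steps. The mean of Hoxa7 was 29.0 times that of Hoxb5, the lowest expressed member.

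Within HoxA, reads ended abruptly after group 10. Hoxa9 and Hoxa10 had 65 to 107 reads per sgNT library, and the next genes along the chromosome, Hoxa11 and Hoxa13, had no reads in any of the 4 libraries. HoxD had such a gap in its middle. Hoxd13 had 139 to 148 reads and Hoxd10 28 to 32, while Hoxd11 and Hoxd12, which lie between them, had none in any library. In HoxC the gene without reads was Hoxc12, between Hoxc11 (7 and 10 reads) and Hoxc13 (38 and 32 reads). The sixth gene without a read was Hoxd1, at the anterior end of its cluster. Having no reads does not show that these genes were silent, as levels up to 0.768 to 0.941 CPM in a library could be missed.

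The other 6 untested genes had reads but stayed under the filter for testing. Hoxa6 had 1 and 0 reads in sgNT and 0 and 2 in sgCbfb, lying between Hoxa5 and Hoxa7, which were both well read. Hoxb8 had 0 and 1 reads against 1 and 0, and Hoxb9, the thoracic partner of Hoxa9 and Hoxc9, had 1 and 0 against 1 and 1. The remaining 3 were HoxB genes with reads in 1 library each. HoxB as a whole was low: its best read member in sgNT was Hoxb3, with 6 and 17 reads, and Hoxb13, a gene of the distal colon and prostate, had 1 and 2.

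Of the 39 genes, 27 passed the filter, which asks for a log2 value of 0 or more in 2 or more libraries, and entered the limma test with all 12207 genes that passed. None of the 27 was called higher and none lower in sgCbfb cells at an adjusted p-value under 0.05, against 2.83% called over all tested genes (1.57% higher and 1.25% lower). At an unadjusted p-value under 0.05 there were 4 of 27 (14.8%), and 14.9% over all tested genes. Voom with limma on recovered reads, scaled by totals or by TMM, called none of them either. The log2 fold change was positive for 18 and negative for 9, that is 66.7% positive against 57.0% over all genes. The median over the 27 was 0.18, and that over all tested genes 0.039. In 13 genes both sgCbfb libraries were above both sgNT libraries and in 3 both were below, together 59.3% of the 27, where 44.1% of all tested genes did not overlap (27.4% higher and 16.8% lower). Only the 22 genes taken as expressed in sgNT met the filter in both sgNT libraries. The other tested Hox genes passed only with the help of a sgCbfb library, Hoxb4 and Hoxb13 among them. Hoxb4 and Hoxb13 both count among the 18 positive and the 13 higher genes. In these bulk samples, fewer cells with a transcript and less RNA per cell cannot be told apart.

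**Figure D2:**
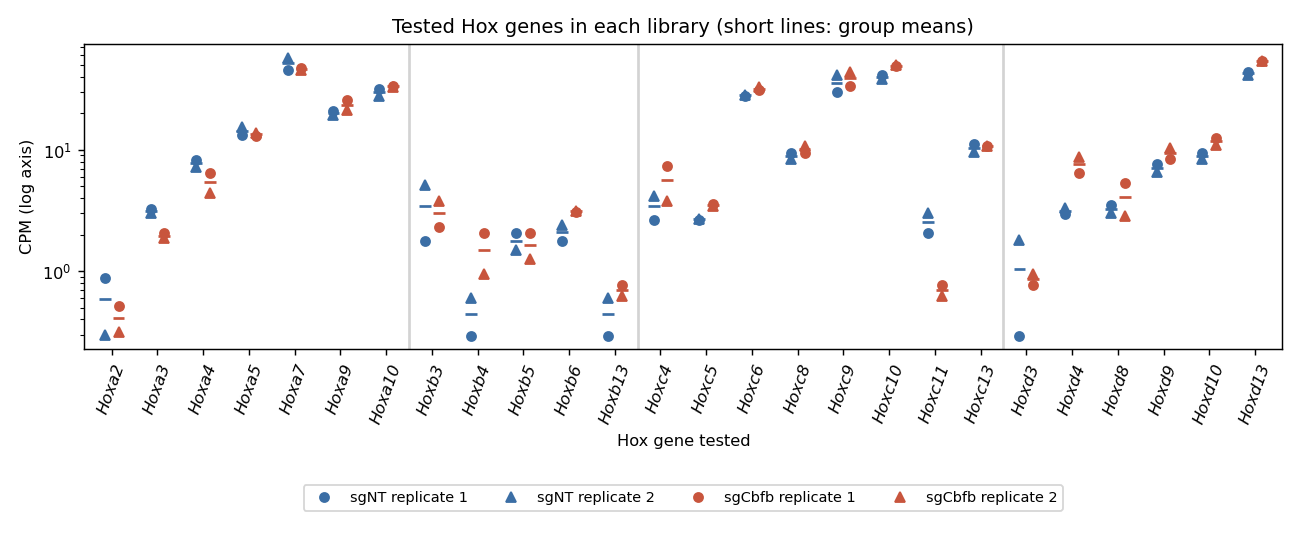
CPM (log axis) of the tested Hox genes reported here in each of the 4 libraries, sgNT in blue and sgCbfb in red, with group means as short lines; grey lines divide HoxA, HoxB, HoxC and HoxD. Hoxa7, Hoxc10 and Hoxd13 are the 3 highest in both groups, and Hoxd4 shows the widest gap between groups among the genes that have 10 reads or more in all libraries.

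The Hox gene with the smallest p-value was Hoxd4, an anterior gene of the hindbrain and neck that responds to retinoic acid. It had 10 and 11 reads in sgNT and 25 and 28 in sgCbfb, or 2.94 and 3.30 against 6.40 and 8.78 CPM. Both sgCbfb libraries were above both sgNT libraries. The difference was 1.13 on the log2 scale (standard error 0.34, 95% interval 0.42 to 1.84), with an adjusted p of 0.0782 from limma. In the annotation Hoxd4 shares 52.3% of its exonic bases with Hoxd3 and a predicted gene on the same strand, but only 22 of its last 500 bases, where these libraries read. Under a stricter minimum of 5 CPM Hoxd4 was called (adjusted p = 0.0372 from limma), but it passes that minimum only through its sgCbfb libraries, and 5.33% of genes are called there. Hoxd4 was also the only member called at an adjusted p under 0.1, where 4.6% of genes pass, and with the replicate number as a block (adjusted p = 0.0414 from limma), where 4.38% pass.

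Hoxd13, Hoxc10 and Hoxc11 also had an unadjusted p-value under 0.05, and none passed after adjustment. Hoxd13 had 148 and 139 reads in sgNT and 209 and 172 in sgCbfb, or 43.6 and 41.7 against 53.5 and 53.9 CPM, a log2 difference of 0.33 (standard error 0.12; adjusted p = 0.174 in limma). Hoxc10 had 140 and 129 reads against 191 and 160, a log2 difference of 0.31 (standard error 0.13; adjusted p = 0.237 in limma). In both genes the sgCbfb libraries lay above the sgNT libraries, by margins wider than the spread within either group. Hoxc11, the only group 11 gene with reads, went the other way, with 7 and 10 reads in sgNT and 3 and 2 in sgCbfb. Its log2 difference was -1.27 (standard error 0.46, adjusted p = 0.164 from limma), and its sgCbfb level of 0.627 to 0.768 CPM was at or under the level of 3 reads.

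Summed over a cluster, HoxD had the widest gap between groups. Its members had 67.4 and 64.8 CPM in sgNT and 87.0 and 87.8 in sgCbfb, a ratio of 1.32. The ratio was 1.44 when Hoxd13 was left out of the sum and 1.27 when Hoxd4 was left out, both settings chosen after the data were seen. HoxC had 127 and 136 against 146 and 156 (ratio 1.15), and HoxB had 23 and 35 reads against 43 and 34 (ratio of CPM 1.25). HoxA differed by less than its spread, with 126 and 131 against 130 and 125 (ratio 0.994). The Hox genes together had 327 and 343 CPM in sgNT and 373 and 380 in sgCbfb, a ratio of 1.13. No p-value was computed for these sums. With the ribosomal RNA gene Rn45s, which took 11.3% to 13.9% of reads, and Rn18s left out of the totals, the HoxD ratio was 1.30.

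In HoxD, 5 of the 6 tested genes had a positive log2 difference. Hoxd9 had 26 and 22 reads in sgNT and 33 and 33 in sgCbfb, a log2 difference of 0.37 (standard error 0.28). Hoxd10, which with Hoxd9 patterns the lumbar region and limbs and whose window holds the TGTGGT printed above, had 32 and 28 against 49 and 35, a difference of 0.38 (standard error 0.26). Both were higher in both sgCbfb libraries, and both intervals took in 0. Hoxd8 had 12 and 10 reads against 21 and 9, so that its groups overlapped. Hoxd3 had 1 and 6 against 3 and 3, shares 62.3% of its exonic bases with other genes, and its difference of -0.01 turned positive under voom and under a smaller prior count.

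In HoxC, 7 of the 8 tested genes had a positive log2 difference, 6 of 8 under quantile normalization, where Hoxc13 turned negative. The differences were small in the genes with many reads. Hoxc6, a thoracic gene, had 95 and 94 reads in sgNT and 121 and 105 in sgCbfb, a difference of 0.18 (standard error 0.15). Hoxc8, which sets thoracic and brachial identity, had 32 and 28 against 37 and 34, and Hoxc9, a gene of thoracic motor neurons, had 101 and 139 against 132 and 140. Hoxc9 overlapped between groups. Hoxc13, known for hair and nail keratins, had 38 and 32 reads against 42 and 34, a difference of 0.04. Hoxc4, with 9 and 14 against 29 and 12 reads, was above its sgNT range in only 1 sgCbfb library, and Hoxc5 had 9 and 9 against 14 and 11.

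In HoxA, 5 of 8 tested genes had a negative log2 difference. Hoxa7 had 155 and 192 reads in sgNT and 185 and 146 in sgCbfb, a difference of -0.14 with a 95% interval of -0.41 to 0.13. Hoxa5, a gene of lung and cervicothoracic development, had 45 and 51 against 51 and 44 (difference -0.08, interval -0.55 to 0.38). For these, changes of the size seen in Hoxd4 lie outside the interval. Hoxa9, best known from leukaemia, had 71 and 65 against 100 and 68 reads, and Hoxa10, a gene of the uterus and lumbar spine, had 107 and 93 against 131 and 106. Both were higher in both sgCbfb libraries by CPM, with differences of 0.21 and 0.17 and intervals that took in 0. Hoxa3, which is needed for thymus and parathyroid, and Hoxa4 were lower in both sgCbfb libraries, with 11 and 10 against 8 and 6 reads and 28 and 24 against 25 and 14. Their differences were -0.54 (standard error 0.40) and -0.49 (standard error 0.32). Hoxa2, which gives the second pharyngeal arch its identity, had 3 and 1 reads against 2 and 1, too few to place it.

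The 3′ ends of Hoxa3, Hoxa4 and Hoxa7 overlap antisense genes in the annotation, and how strand was used in counting is not given in the sources used here, so some of these reads could belong to the partner. The last 500 bases of Hoxa7 lie wholly under Hoxaas3, which itself had 3 to 6 reads in each library.

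In HoxB the 5 tested genes had few reads. Hoxb4, which expands blood stem cells when forced on, had 1 and 2 reads in sgNT and 8 and 3 in sgCbfb (log2 difference 0.98, standard error 0.51, adjusted p = 0.386 from limma). Hoxb4 was at or under 3 reads in both sgNT libraries. Hoxb3 had 6 and 17 against 9 and 12, and 493 of its last 500 bases lie under the antisense gene Hoxb3os. Hoxb5 had 7 and 5 against 8 and 4, Hoxb6 6 and 8 against 12 and 10, and Hoxb13 1 and 2 against 3 and 2. By CPM, Hoxb4, Hoxb6 and Hoxb13 were above their sgNT range in both sgCbfb libraries, Hoxb13 by under 1 read. Hoxb4 and Hoxb13 were under the filter value in sgNT replicate 1 (log2 -0.20), so they were tested only through their sgCbfb libraries. None of the 5 passed the test at this depth.

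**Figure D3:**
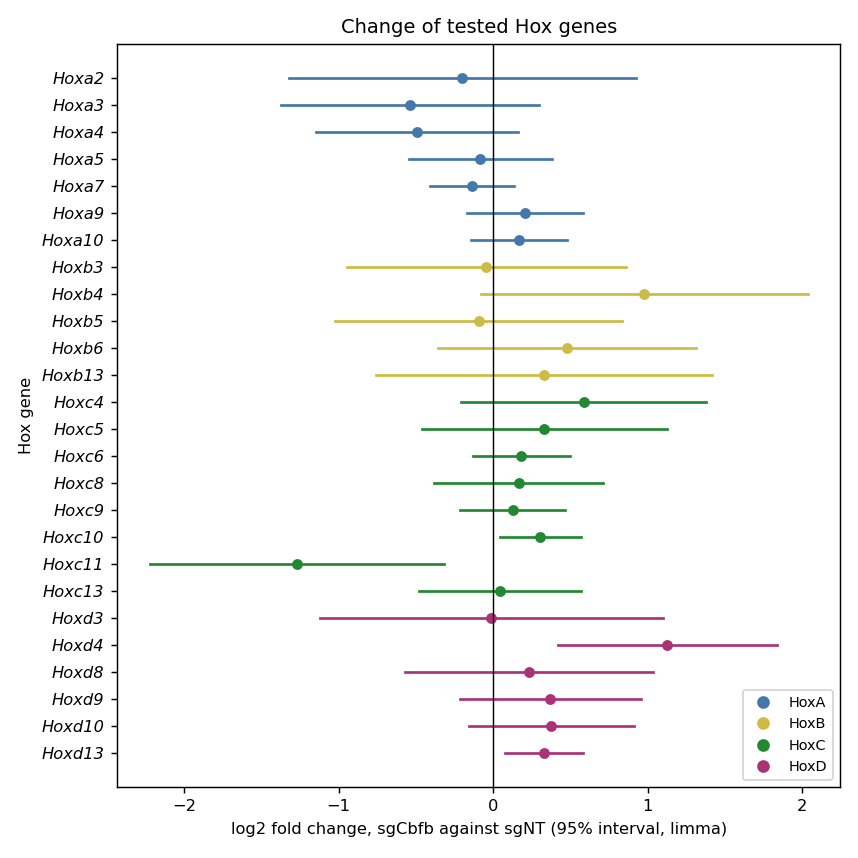
The log2 fold change of the tested Hox genes reported here in sgCbfb against sgNT cells, with its 95% interval from limma, coloured by cluster. Intervals are narrow, within 1 of 0, for 13 genes, and the intervals of Hoxc10, Hoxc11, Hoxd4 and Hoxd13 leave out 0.

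The precision of these differences followed depth. Standard errors ran from 0.12 for Hoxd13 to 0.54 for genes of a few reads. Of the 14 genes that had 10 reads or more in all libraries, 12 had an interval lying within 1 of 0 on the log2 scale. The others were Hoxa4 (-0.49) and Hoxd4 (1.13), which had the lowest and the highest difference of the 14. Over all 27 genes, 24 had a difference under 1 in size, and Hoxd4 and Hoxc11 were among those beyond it.

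Among the partners of Hox proteins, 7 of the 9 TALE genes were tested, of which 1 was called higher and none lower, with a median of 0.18. Over all tested genes 1.57% were called higher and 1.25% lower, with a median of 0.039. Pbx2, a DNA-binding partner of many Hox proteins, rose from 125 and 129 reads to 204 and 166, or 37.7 ± 1.3 to 52.1 ± 0.10 CPM (SD, n = 2). Both sgCbfb libraries were above both sgNT libraries, and the log2 difference was 0.46 (standard error 0.13, adjusted p = 0.0489 from limma). This call lies close to the threshold, and it was lost under median centring (adjusted p = 0.0625 from limma) and without either sgNT library. It was also lost without a filter, without a trend, with quantile normalization and with TMM scaling. A prior count of 0.5 and leaving ribosomal RNA genes out of the totals ended it too. The difference was 0.42 without sgNT replicate 1 and 0.50 without sgNT replicate 2. With either sgCbfb library left out limma called none of the genes tested, so for the calls in this and the following lists only the differences are given there; that of Pbx2 was 0.46 in both cases.

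Few members of the list of ParaHox and posterior growth genes had reads. Of its 13 genes 9 had no reads, and only Gdf11, a secreted factor that helps start the posterior Hox programme, could be tested, with 35 and 38 reads in sgNT and 34 and 39 in sgCbfb. Of the non-coding transcripts of the clusters, 11 were in the table and 3 were tested, with none called where 2.83% of all tested genes were. The one best read was Hoxd3os1, an antisense transcript of the HoxD cluster, with 12 and 18 against 17 and 32 reads (log2 difference 0.55, standard error 0.37). Its groups overlapped, and the difference was near 0 (-0.0083) with sgCbfb replicate 2 left out. Genes beside the clusters on the same chromosomes were tested for 10 of 13, with 9 positive, none called and a median of 0.15, against 57.0% positive, 2.83% called and a median of 0.039 over all tested genes. Atp5g3, a mitochondrial ATP synthase subunit gene near HoxD, had a difference of 0.09, and Cbx5, a heterochromatin protein gene near HoxC, one of 0.18 (adjusted p = 0.0928 from limma).

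Of the 27 Polycomb group genes, all tested, 1 was lower and none higher, with a median of -0.055, where 2.83% of all tested genes were called. Cbx7, a chromobox subunit that brings Polycomb repressive complexes to methylated histones, fell from 30 and 24 reads to 13 and 9. On the log2 values, which include a prior count, Cbx7 was at 42.6% of its sgNT level. Its log2 difference was -1.23 (standard error 0.34), with an adjusted p of 0.0472 from limma. The groups did not overlap, and the call was lost without either sgNT library (adjusted p of 0.156 and 0.294 in limma). The difference was -1.33 and -1.13 without sgCbfb replicate 1 and 2. The 18 Trithorax group genes and Hox activators had none called and a median of 0.035. Psip1, whose chromatin-binding product tethers Trithorax group complexes, had the most reads and a difference of -0.03 with a standard error of 0.06.

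Retinoic acid genes were tested for 9 of 18, with 1 lower, none higher and a median of -0.11, against 1.25% lower over all tested genes. Rdh10, the dehydrogenase that turns retinol into retinal in the first step of retinoic acid synthesis, fell from 115 and 94 reads to 64 and 51. On the log2 values, which include a prior count, Rdh10 was at 53.3% of its sgNT level (log2 difference -0.91, standard error 0.18, adjusted p = 0.00328 from limma). It was lower in both sgCbfb libraries than in either sgNT library. The call was lost without a filter, without a trend, with quantile normalization and without sgNT replicate 1, where the difference was -0.78. The difference was -0.93 without sgCbfb replicate 1 and -0.89 without sgCbfb replicate 2.

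Among other factors of regional identity, 11 of the 21 gut factors had no reads, 7 were tested (median -0.018) and 1 was called lower, against 1.25% of all tested genes. That was Sox9, a factor of crypt cells and of cartilage, with 1045 and 1018 reads in sgNT and 1017 and 822 in sgCbfb, a log2 difference of -0.24 (standard error 0.07; adjusted p = 0.0483 in limma), lost without either sgNT library (0.208 and 0.218). Its difference stayed between -0.25 and -0.24 with any library left out. Of 20 limb and body-wall factors 13 were tested (8 positive and 5 negative, median 0.14, where 57.0% of all tested genes were positive) and 1 was called lower, against the same 1.25%. Prrx2, a homeobox gene of limb and facial mesenchyme, fell from 108 and 76 reads to 20 and 20. On the log2 values, which include a prior count, Prrx2 was at 22.7% of its sgNT level. Its log2 difference of -2.14 (standard error 0.25; adjusted p = 3.00e-06 in limma) is wider than that of any Hox gene tested. Prrx2 lost its call without a filter and without a trend. It kept its call without either sgNT library, and its difference was -2.01 and -2.27 without sgCbfb replicate 1 and 2.

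**Figure D4:**
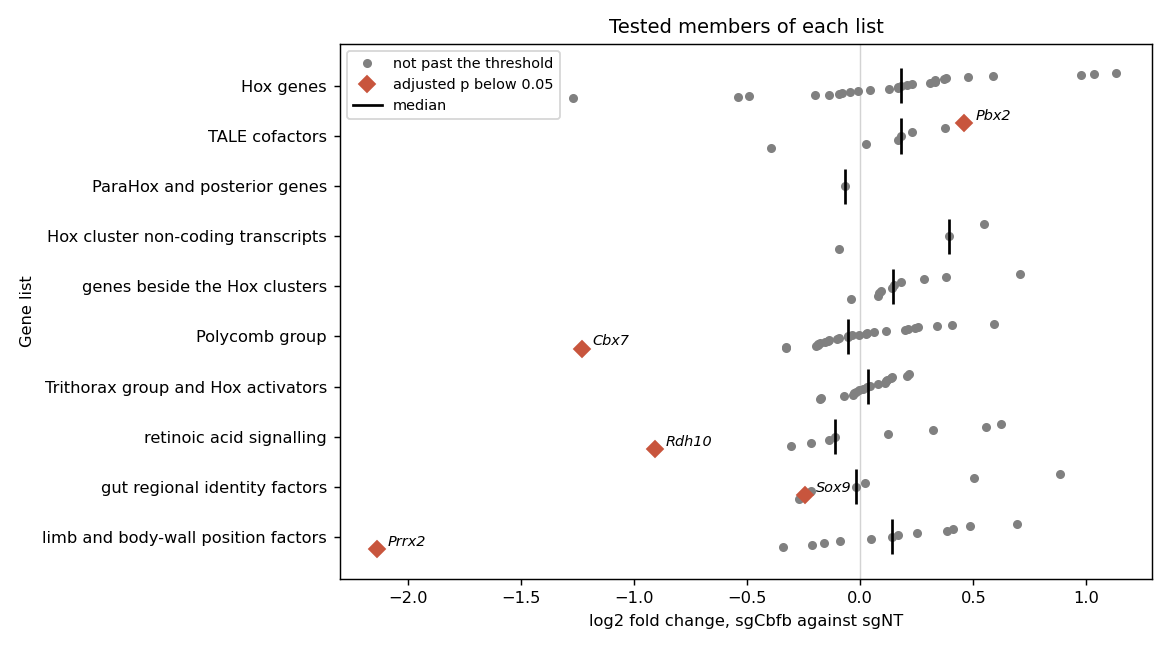
The log2 fold change (sgCbfb against sgNT) of every tested gene in each list, with list medians as black bars and called genes as red diamonds. The Hox genes have none called, and Prrx2 at -2.14 stands farthest from 0.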

How the data were processed

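Libraries of MC38 cells (2 sgNT, 2 sgCbfb) were grouped by their labels. Per the study's methods and the submitters' processing notes, the authors used cutadapt 1.9 for trimming, HISAT2 2.1.0 for alignment to GRCm38/mm10 and featureCounts (2.0.1 in the notes) for counting. The values deposited by the authors are log2 CPM (read counts scaled to the library) with a prior count added; the annotation and the use of strand are not given in the sources used here, which could change overlapping, antisense and paralogous genes. Reads were recovered from the steps of these values and came out whole (within 0.1) for 99.99% to 100% of values; they describe depth and serve alternatives only.

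Differences were tested with limma 3.58.1 (R 4.3.3; lmFit, eBayes with a mean-variance trend) on the 12207 genes with log2 CPM at or above 0 in 2 or more libraries. Tests were two-sided, and p-values were adjusted by Benjamini-Hochberg over all of these genes, with a threshold of 0.05. Intervals are at 95%. An exact permutation test of 1 gene in this design cannot go below p = 0.333. Positions are from GENCODE M21, promoters from RefSeq (GRCm38.p6). Python 3.11.15, pandas 2.3.3 and matplotlib 3.10.9 were used.

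Named are all tested Hox genes, untested ones with reads in at least 2 libraries, and from each list the called genes, or else the 2 best read. The other untested Hox genes, and Cdx1, Cdx2 and the absent epithelial markers, were named after their values were seen. Of the genes this rule selects, 2 are not reported by name here, although counts and sums include them. Members and lists were chosen with earlier results of these data known. Alternatives were no filter, a minimum of 5 CPM, quantile normalization, median centring, no trend, voom with library totals or with TMM scaling (trimmed mean of M-values), prior counts of 0.5 and 5, the replicate block, other thresholds, each library left out, and ribosomal RNA genes left out. Homeodomain identity was not analysed here.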

Additional observations from a re-analysis of the deposited data

How the results depend on the processing

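No Hox gene was called under most settings. Hoxd4 was the exception, 1 called higher with a minimum of 5 CPM, with the replicate block and at an adjusted p under 0.1 (where 4.60% of all genes pass). It met the minimum of 5 CPM only through its sgCbfb libraries. Its log2 difference stayed between 0.92 and 1.34 with adjusted p from 0.0372 to 0.728 over all alternatives. The direction turned for Hoxc13 with quantile normalization (-0.0063), and for Hoxd3 with voom on library totals (0.091), voom with TMM scaling (0.047) and a prior count of 0.5 (0.11). With 1 library left out at a time, differences crossed 0 for Hoxa2 (-0.57 to 0.17), Hoxa5 (-0.18 to 0.017), Hoxa7 (-0.30 to 0.028), Hoxb3 (-0.68 to 0.59), Hoxb5 (-0.35 to 0.16), Hoxc9 (-0.11 to 0.37), Hoxc13 (-0.061 to 0.15), Hoxd3 (-0.73 to 0.71), Hoxd8 (-0.17 to 0.63), Gdf11 (-0.30 to 0.17), Hoxaas3 (-0.33 to 0.15), Hoxd3os1 (-0.0083 to 1.10), Krt8 (-0.79 to 0.077) and Psip1 (-0.068 to 0.0082). Leaving out a library that leaves a group with 1 assumes that it varies like the other group.

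Over all genes, 192 were called higher and 153 lower in the reported test. The counts were 2 and 53 without a filter, 300 higher with a minimum of 5 CPM, 39 and 44 with quantile normalization, 0 and 0 without a trend in limma (1461 had an unadjusted p under 0.05), 240 lower with voom and TMM scaling, and 0 to 115 higher and 0 to 86 lower with 1 library left out, both at 0 without either sgCbfb library. Libraries that share a replicate number showed no shared deviation (correlation -0.0042) and there are only 2 such pairs, so the replicate block is only an alternative. It gave 320 higher and 215 lower genes, with 2 TALE genes and 2 limb and body-wall genes called. Called members of the lists went to 0 without a filter and without a trend for the TALE, Polycomb, retinoic acid, gut, limb and Cbfb and Runx lists, and with quantile normalization for the TALE, Polycomb, retinoic acid and gut lists. A prior count of 0.5 left 0 in the TALE, Polycomb and gut lists, leaving ribosomal RNA genes out of the totals left 0 in the TALE and Polycomb lists, and median centring and TMM scaling left 0 in the TALE list. The limb list had 2 with a minimum of 5 CPM and with voom on library totals, which also called 1 gene beside the clusters (Cbx5). With 1 library left out, called members ran from 0 to 0 for the TALE and gut lists, 0 to 1 for the Polycomb, retinoic acid and limb lists and 0 to 2 for Cbfb and Runx genes. The cause of these shifts was not tested. Count tests in other packages, planned as alternatives, were not run, because the deposited unit is log2 CPM. Genes with under 10 reads in a library are limited by counting error.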
